A study of Mus musculus with 6 samples.

Results

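Hub bins of chromosomes 2 to 19 are 5 kb segments of the mouse genome that were listed as interacting with many other segments of their chromosome. The members were chosen by a measured value, the number of listed interactions of a bin, which had to reach 50 at 1 or more of 3 time points. Of the 328535 bins of these chromosomes with any listed interaction, 241 (0.0734%) met this rule, among 376858 bins in the whole table. Chromosome 1 held 428 such bins and chromosome X 21, and these are not members. The numbers of listed interactions are therefore given as descriptions, without tests. The rule cut through a continuous distribution, since 14 bins reached at most 49 interactions and 5 reached exactly 50, and 87 bins had a highest number of 45 to 49 against 34 with 50 to 54.

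The libraries are Hi-C libraries of P19, an embryonal carcinoma line of the mouse that turns towards neurons when given retinoic acid. The 3 groups, with 2 replicates each, were non-differentiated cells (T0) and cells that had received all-trans retinoic acid (ATRA, 1e-06 M), with harvests after 6 h (T6) and 48 h (T48). Cells kept for 6 h or 48 h without ATRA were not analysed here, so ATRA and time in culture cannot be told apart, and all values come from 1 line in monolayer culture. Whether the replicates came from separate cultures is not in the labels, and the p-values cover just the scatter among these libraries, which could be technical.

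Hi-C cuts crosslinked chromatin, ligates ends held near each other and reads the 2 ends of each joined fragment, so that a read pair reports a contact between 2 segments. Retinoic acid acts through nuclear receptors that sit on DNA and change the transcription of their target genes. In interphase nuclei, chromatin is folded into loops and domains that bring enhancers near promoters, and contact frequency falls with distance along the chromosome. A segment with contacts to many others can be a loop anchor, a cluster of regulatory elements, or a segment whose DNA is recovered more often than that of its neighbours. The files hold raw read pairs for each pair of bins, and a pair has a count at a time point only if it was listed in both replicates there. A change in how often a bin was recovered and a change in its contacts cannot be told apart in such counts.

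The listed counts summed to between 23003295 and 50154643 per library, and 1617863 to 1911467 interactions were listed per time point. Replicate 1 at T48 stood apart from the other libraries in the level of single bins. The level of a bin in a library is its count over the interactions listed at all 3 time points, as counts per 1e6 of the library (CPM), divided by its highest value among the 6 libraries. Among the 45111 bins of the whole table with a mean CPM of at least 5, a level under 0.5 was found in 2.72% in replicate 1 at T48, against 0.838% to 1.56% in the other 5 libraries. The listed count was 43500876 in replicate 1 at T48 and 29554481 in replicate 2 at T48. It sums listed pairs only and does not give the sequencing depth, whose part in these levels was not tested. Lists per replicate were not used here, so numbers of interactions cannot be recomputed without replicate 1 at T48. Levels are given for each library instead.

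Hub bins lay on all 18 chromosomes and were concentrated on chromosome 6. Chromosome 6 held 98 of the 241 (40.7%), of which 96 fell between 90905001 and 127400000 (36.5 Mb, build mm9, limits set after the positions were seen). In that stretch there were 173 hub bins per 10000 bins with a listed interaction, against 1.21 in the rest of chromosome 6 and 4.67 on the other 17 autosomes considered. Neighbouring hub bins of chromosome 6 were a median of 125 kb apart. On chromosome 4, 20 of 28 hub bins lay between 145025001 and 147875000 (2.85 Mb), and on chromosome 15 all 15 lay between 99265001 and 101800000 (2.54 Mb). Chromosomes 8 and 19 held 12 each, chromosome 5 held 10, and the remaining 12 chromosomes held between 2 and 9.

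**Figure D1:**
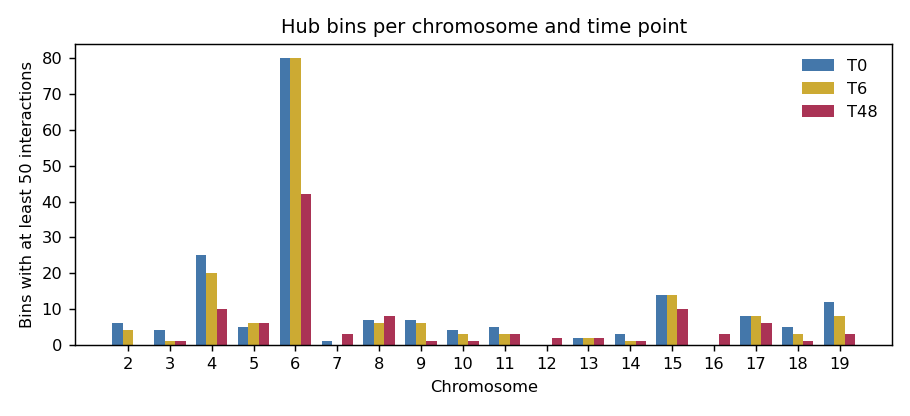
Number of bins with at least 50 listed interactions (vertical axis) on each of chromosomes 2 to 19 (horizontal axis), with 1 bar per time point. Chromosome 6 has the tallest bars at every time point, with 80 hub bins at T0, 80 at T6 and 42 at T48.

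Most hub bins stood alone. With bins within 100 kb of each other joined, the 241 bins formed 163 regions, of which 118 held 1 bin, and 10 hub bins lay directly next to another hub bin. The region with the most hub bins held 6, on chromosome 6 between 99110001 and 99225000. The 4 bins on either side of a hub bin had a median of 14 interactions at the hub's best time point, where the hub bins themselves had a median of 77. In 167 of the 241, even the highest of these flanking bins had fewer than 0.5 times the interactions of the hub bin. For comparison, the median over all bins of chromosomes 2 to 19 was 10, 8 and 9 interactions over the 3 time points, and the 99th percentile was 28, 25 and 27. The excess was therefore 1 bin wide in most places. It was broader in the 29 bins that were hubs at T48 alone. Their T48 medians were 25, 34, 54, 28.5 and 25 interactions at -10, -5, 0, 5 and 10 kb.

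**Figure D2:**
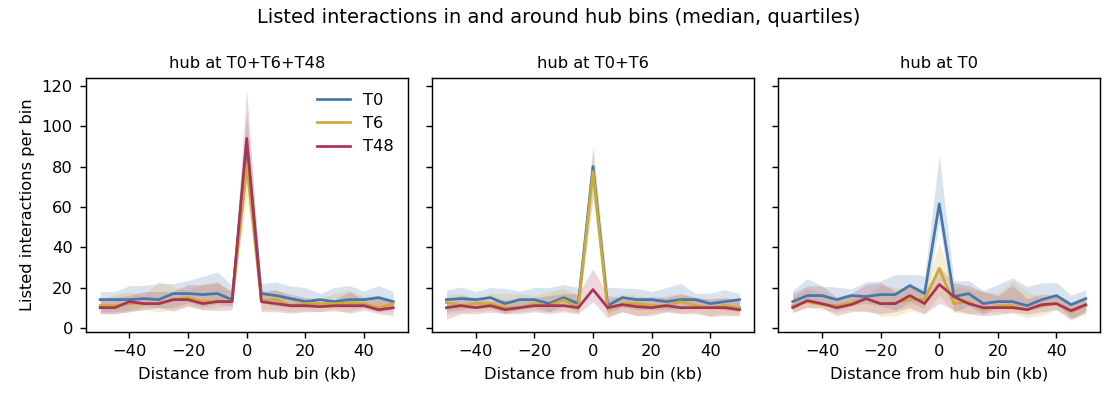
Listed interactions per bin (vertical axis) against distance from the hub bin in kb (horizontal axis) for hub bins of 3 time courses, with 1 line per time point for the median and a band for the quartiles. The high numbers are confined to the hub bin itself at 0 kb, where the bins that were hubs at T0 and T6 have medians of 80, 77.5 and 19 at T0, T6 and T48.

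Hub bins were listed with a large part of the chromosome around them. The median hub bin was listed with 47% of the bins within 250 kb at its best time point, and the highest share was 77%. In 159 hub bins at least 25% of the interactions lay on each side, and in 36 under 10% lay on 1 side, with 15 reaching mainly to lower coordinates and 21 mainly to higher coordinates. Among the 1-sided was the bin of chromosome 12 from 81230001, with 96 partners at lower and 3 at higher coordinates at T48. Another, on chromosome 7 from 136795001, had 1 partner at lower and 73 at higher coordinates.

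The interactions of hub bins were longer than others. At T0 their median span was 225 kb, at T6 210 kb and at T48 255 kb, against 70, 70 and 80 kb for the other interactions of chromosomes 2 to 19. Spans of at least 500 kb made up 22.2%, 21.1% and 27.0% of hub interactions at T0, T6 and T48, against 11.1%, 11.0% and 14.8% of the others. Spans of 20 kb or less made up 7.42%, 8.10% and 8.90%, against 30.9%, 32.1% and 31.8%. A bin can have few partners within 20 kb and many beyond, so a bin with at least 50 partners must reach farther out, and these spans are in part fixed by the rule. The median span of a hub bin ranged from 75 to 4230 kb with a median of 215 kb.

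The hub bins with the longest reach lay on chromosome 4. Of 12 hub bins with a median span above 1000 kb, 10 were in the distal stretch of chromosome 4, with medians of 1090 to 1440 kb. Farthest reached a bin of chromosome 4 from 18910001, with a number of 169 at T0, of 128 at T6 and of 245 at T48, a median span of 4230 kb and a longest span of 9895 kb. Only 3% of the bins within 250 kb of it were among its partners, in contrast to the median hub bin. Outside chromosome 4, a bin of chromosome 8 from 7100001 had 25, 21 and 52 interactions with a median span of 1435 kb. Without the chromosome 4 bin from 18910001, the median span of hub interactions was 220, 205 and 245 kb at T0, T6 and T48.

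Hub interactions numbered 23945, which was 0.749% of the 3197094 interactions of chromosomes 2 to 19. They joined hub bins with 12261 other bins and, in 715 cases (2.99%), with another hub bin. Chromosome 6 held 406 of these 715 hub-to-hub interactions (56.8%), and 170 of the 241 hub bins had at least 1 hub partner. The most hub partners, 24, belonged to the bin of chromosome 6 from 98065001 (106, 79 and 118 interactions over the time course), which was picked out after its values were seen. Its neighbour from 98075001 (118, 107 and 144 interactions) had 22. The chromosome 6 bins from 98440001, 98895001 and 99475001 had 19 each, as did the bin of chromosome 4 from 145035001. The median span between 2 hub bins was 400, 377.5 and 367.5 kb at T0, T6 and T48.

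Counts of hub interactions exceeded the lowest listed count by more than those of other interactions did. For spans above 20 kb, each count was divided by the lowest count listed at that distance in that library. In the T0 libraries the median multiple was 3.25 and 2.75 for interactions between 2 hub bins, in replicates 1 and 2. It was 1.83 and 1.67 for a hub bin with another bin, and 1.30 and 1.22 for the remaining interactions. At T48 hub-to-hub interactions had 2.3 in replicate 1 and 3.6 in replicate 2, so the order of the replicates was turned. The same reads decide the listing by which members were chosen, so higher multiples are in part fixed by the choice.

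Over the time course, hub bins more often had fewer than more listed interactions at 48 h compared with T0. At T0 188 of the 241 reached 50 interactions, at T6 165 and at T48 103. The median number per hub bin was 69 at T0, 64 at T6 and 39 at T48, with ranges of 5 to 169, 2 to 144 and 4 to 245. From T0 to T48 the number was lower in 156 bins and higher in 80. From T0 to T6 it was lower in 179 and higher in 55. With numbers scaled to list length, which moves every bin of a time point by the same factor, 155 of the same 241 bins had more and 86 fewer at T6 than at T0. At T48 98 had more and 143 fewer than at T0 after this scaling. With the members chosen again on scaled numbers, 159 of 234 bins had more at T6 than at T0, and 96 of 234 had more at T48.

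The members fell into 7 time courses. Hubs at all 3 time points numbered 65, with medians of 91, 81 and 94 interactions at T0, T6 and T48. Hubs at T0 and T6 but not at T48 numbered 76, with medians of 80, 77.5 and 19. Hubs at T0 alone numbered 42 (61.5, 29.5 and 21.5), hubs at T48 alone 29 (36, 28 and 54) and hubs at T6 alone 20 (23.5, 68.5 and 16). A further 5 were hubs at T0 and T48, and 4 at T6 and T48. Chromosome 6 contributed 33 of the 65 constant hubs, 34 of the 76 at T0 and T6, and 11 of the 20 at T6 alone. Since membership at each time point defines these sets, their medians are descriptions.

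**Figure D3:**
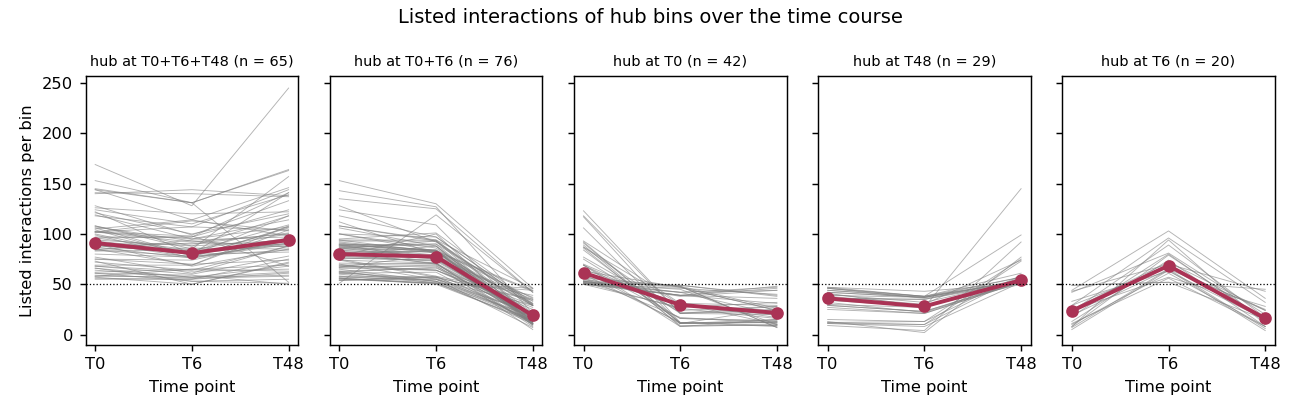
Listed interactions per bin (vertical axis) at T0, T6 and T48 (horizontal axis) for the 5 most frequent time courses, with 1 thin line per hub bin, a thick line for the median and a dotted line at 50. The 76 hubs at T0 and T6 have a median of 19 at T48, whereas the 65 hubs at all time points have medians of 91, 81 and 94.

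Hub interactions were listed repeatedly more often than others. Of the 23945, 6037 (25.2%) were listed at all 3 time points, against 14.7% of the other interactions of chromosomes 2 to 19. Those listed at 1 time point made up 47.0%, against 68.6%. Hub interactions listed at all time points had a median span of 150 kb, and those listed at T48 alone 485 kb. For the other interactions these medians were 10 and 230 kb. Members were chosen by numbers of listed interactions, so these shares describe them and are no test.

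The levels of hub bins in the 6 libraries fell into a high and a low range with few values between. Of 1446 levels (241 bins in 6 libraries), 1062 were at least 0.7, 42 lay from 0.5 to 0.7, and 342 were under 0.5, of which 276 lay between 0.25 and 0.45. The highest library of each bin has a level of 1 by definition, so 241 of the 1062 were fixed there. In the following, a bin is called low in a library where its level is under 0.5. A low level in 1 or more libraries was found in 162 of the 241 bins. In bins of mean CPM of at least 5 it was found in 154 of 215 hub bins (71.6%), against a background of 3.71% of such bins in the whole table. Because a bin became a member through its best time point, a share above the background is in part fixed by the choice and is given without a test.

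Low levels were unequally spread over the libraries. At T0 49 hub bins were low in replicate 1 and 22 in replicate 2, and at T6 56 and 23. At T48 150 were low in replicate 1 and 42 in replicate 2. The most frequent pattern after no low library (79 bins) was a low level in replicate 1 at T48 alone (66 bins), followed by a low level in replicate 1 at all 3 time points (18 bins). Replicate 1 thus had more low hub bins than replicate 2 at each time point.

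**Figure D4:**
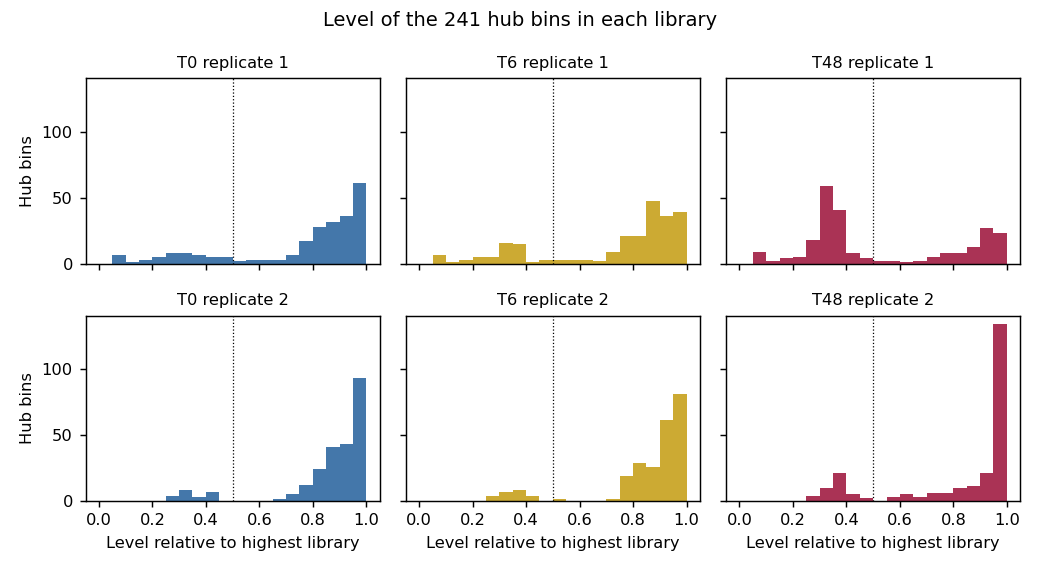
Number of hub bins (vertical axis) by their level relative to the highest of the 6 libraries (horizontal axis), with 1 panel per library and a dotted line at 0.5. Values gather above 0.7 or between 0.25 and 0.45, and replicate 1 at T48 is the library with most bins in the low range, 150 of 241. The highest library of each bin stands at 1 by definition.

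In a library where a hub bin was low, its short contacts were at the level of an ordinary bin. The short-range ratio is the count of a bin over its interactions of 20 kb or less that were listed at all 3 time points, divided by the sum of the median counts of that library at the same distances. Its median over all bins was between 1.00 and 1.01 in the 6 libraries. For the 217 hub bins with such interactions, replicate 1 had medians of 2.30 (T0), 2.23 (T6) and 0.990 (T48), whereas replicate 2 had 2.42, 2.38 and 2.41. Where a hub bin was low, the medians were 0.895 to 1.01 across the libraries, and where it was not low, 2.39 to 2.60. Short interactions also enter the level by which a library was called low, so these 2 measures share reads and the split in part fixes the gap between the medians.

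The time courses differed in which libraries carried the raised short-range ratio. For 72 of the hubs at T0 and T6, the medians were 2.39 and 2.39 at T0, 2.31 and 2.31 at T6, but 0.852 and 2.36 at T48 for replicates 1 and 2. For 63 of the hubs at all time points, they were 2.52 and 2.67, 2.49 and 2.68, and 2.63 and 2.87. For 34 of the hubs at T0 alone, they were 2.48 and 2.50 in the T0 libraries, 1.05 and 1.74 in those of T6 and 0.940 and 1.08 in those of T48. For 20 of the hubs at T48 alone, they were 0.875 and 0.972, 0.883 and 0.917, and 1 and 1.78.

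Most hub bins that left the list of hubs at 48 h were low in 1 of the 2 T48 libraries. Of the 118 bins that were hubs at T0 and not at T48, 75 were low in replicate 1 at T48 only, 35 in both T48 libraries, 0 in replicate 2 only and 8 in neither. With a level of 0.4 or 0.6 in place of 0.5, the 4 numbers were 72, 32, 0 and 14, or 74, 38, 0 and 6. In the 76 hubs at T0 and T6, the median log2 ratio of T48 over T0 was -1.43 within replicate 1 and 0.05 within replicate 2. In the 42 hubs at T0 alone it was -1.39 and -1.20. These ratios pair libraries by replicate number, for which the labels give no common origin. An interaction had to be present in both replicates of a time point to be listed. The part of replicate 1 at T48 in the smaller number of hubs at that time point was not tested, since lists per replicate were not used here.

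Of 96 bins that were hubs at T6 and not at T48, 77 were low in replicate 1 at T48 only. The rest were 18 low in both T48 libraries and 1 low in neither. Of 47 bins that were hubs at T0 and not at T6, 9 were low in both T6 libraries and 14 in neither. A further 19 were low in replicate 1 only and 5 in replicate 2 only. Of 33 bins that were hubs at T48 and not at T0, 9 were low in both T0 libraries and 16 in neither. Another 7 were low in replicate 1 only and 1 in replicate 2 only. Of 24 bins that were hubs at T6 and not at T0, 5 were low in both T0 libraries and 3 in neither. Here 10 were low in replicate 1 only and 6 in replicate 2 only. Of 70 bins that were hubs at both T0 and T48, 58 were low in neither T48 library.

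**Figure D5:**
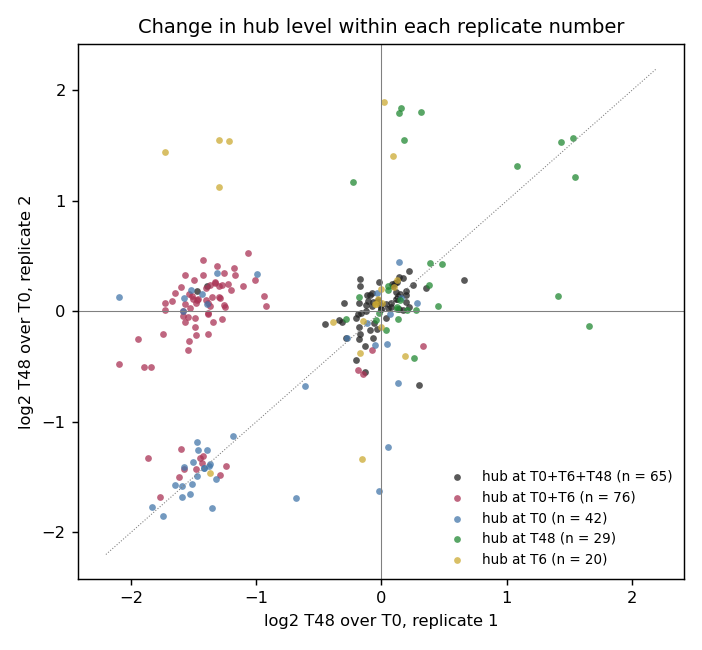
Log2 ratio of T48 over T0 of each hub bin in replicate 2 (vertical axis) against replicate 1 (horizontal axis), with 1 point per bin coloured by time course for the 5 most frequent courses, and a dotted line where both replicates are equal. Of the 76 hubs at T0 and T6, 64 were low in replicate 1 at T48 but not in replicate 2, whereas 23 of the 42 hubs at T0 alone were low in both.

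The fate of single interactions went with these levels. Interactions above 20 kb that joined a hub bin with a bin other than a hub bin were followed, without those between hub bins. Of the 6642 listed at T0 for the 108 hub bins low in replicate 1 at T48 only, 28.3% were found again at 48 h and 62.7% at T6. The 95% Wilson interval at 48 h was 27.2 to 29.4. Such intervals, also given below, cover counting error only. They treat interactions of the same bin as independent and so understate the spread. For the 42 hub bins low in both T48 libraries, 18.1% of 2414 were listed again at T48 (16.7 to 19.7) and 39.9% at T6. For the 91 hub bins low in neither, 70.6% of 5685 were listed again at T48 (69.4 to 71.8) and 59.7% at T6. The other interactions of chromosomes 2 to 19 of that span were listed again in 24.9% of cases at T48 and 25.3% at T6. The sets were formed from the counts of the same bins, so these shares describe them and are no test.

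The share of the listed count that lay in hub interactions was lower at T48 than at T0 within both replicates. It sums the listed pairs that the rule itself used, so it is given with no test. In replicate 1 it was 0.753%, 0.777% and 0.471% at T0, T6 and T48, and in replicate 2 it was 1.04%, 1.12% and 0.897%. The means were 0.895% ± 0.200 at T0, 0.946% ± 0.239 at T6 and 0.684% ± 0.302 at T48 (SD, n = 2). T48 minus T0 was -0.282 percentage points within replicate 1 and -0.139 within replicate 2, with libraries paired by number only. Replicate 1 was below replicate 2 at each time point, so that the T0 and T48 libraries overlapped when the replicate number was set aside.

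Changes in the summed count of each bin were tested over the interactions listed at all 3 time points, with edgeR's quasi-likelihood test on 310746 bins of all chromosomes, 241 of them hub bins. The hub bins contributed a median of 19 such interactions each (2 to 117). The sums of the hub bins called below rested on 5 to 19 each, fewer than were listed at their best time point. Between T6 and T0, 0 bins passed an adjusted p of 0.05 (0% of all bins), and 7684 (2.47%) had an unadjusted p under 0.05, among them 15 hub bins (6.22%). Between T48 and T0, edgeR called 18 bins (0.00579%), of which 7 were hub bins, 2 higher and 5 lower at T48. An unadjusted p under 0.05 was reached by 6.11% of all bins and 47 hub bins (19.5%). Between T48 and T6, 13 bins were called (0.00418%), of which 2 were hub bins, 1 higher and 1 lower. Here 5.41% of all bins and 34 hub bins (14.1%) had an unadjusted p under 0.05. For T6 over T0, T48 over T0 and T48 over T6, DESeq2 called 12, 25 and 20 hub bins, where it called 0.0152%, 0.0656% and 0.0563% of all bins. The median log2 change of the hub bins was -0.02, -0.22 and -0.26 for T6 over T0, T48 over T0 and T48 over T6, against 0.00 over all bins in each. The reads that decide the listing also enter these counts, so the hub shares are not independent of the choice of members, and nothing is read from their excess over the background. All calls in hub bins were lost when any 1 of the 6 libraries was left out, or when only pairs at least 15 kb apart were summed, while, without any 1 library, the log2 changes of the called bins stayed within 0.2 of the values given here.

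In 4 of the 5 hub bins called lower at T48 than at T0, the T6 values lay near those of T48. Between 84105001 and 84110000 of chromosome 3, 1 bin had a CPM of 19.3 and 20.7 in the T0 libraries, 6.70 and 7.01 in those of T6 and 6.40 and 6.48 in those of T48. Its log2 change from T0 to T48 was -1.64 (SE 0.108, edgeR adjusted p = 0.0319), and its listed interactions numbered 87, 21 and 24. Both T0 libraries were high and the other 4 were low, without overlap. This bin and the called bins described below became members only through time points at which they were high. Reads that decide the listing also enter their counts. Direction and separation by group were therefore in part fixed by the choice of members.

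Between 92270001 and 92275000 of chromosome 2, the CPM was 18.1 and 18.6 in libraries of T0, 6.49 and 6.48 in those of T6 and 5.99 and 6.22 in those of T48 (91, 11 and 15 interactions, log2 T48 over T0 -1.59). For chromosome 19 between 46530001 and 46535000 it was 15.8 and 16.3 in libraries of T0, 5.94 and 5.80 in those of T6 and 5.48 and 5.18 in those of T48 (64, 11 and 13 interactions, log2 again -1.59). A further bin, on chromosome 5 between 36410001 and 36415000, had 11.2 and 11.3 in the T0 libraries, 3.997 and 3.81 in those of T6 and 3.94 and 3.82 in those of T48 (89, 8 and 15 interactions, log2 -1.53). In all 3 the T0 libraries were above the other 4 without overlap, and the edgeR adjusted p for T48 over T0 was 0.0319. For T6 over T0 the smallest edgeR adjusted p of any bin, reached by the chromosome 5 bin (log2 -1.52) among others, was 0.0795.

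The fifth lower bin, on chromosome 11 between 77795001 and 77800000, had T6 values near those of T0. Its CPM was 17.2 and 18.5 in libraries of T0, 15.9 and 16.9 in those of T6 and 5.07 and 5.77 in those of T48, with 87, 83 and 14 interactions. The log2 change from T0 to T48 was -1.72 (SE 0.126, edgeR adjusted p = 0.045). The T48 libraries lay below the other 4 without overlap, though T48 against T6 missed the threshold (edgeR adjusted p = 0.0626).

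The 2 hub bins called higher at T48 lay 30 kb apart on chromosome 6. The bin between 101150001 and 101155000 had a CPM of 3.41 and 3.58 in the T0 libraries, 3.44 and 3.88 in those of T6 and 9.85 and 10.7 in those of T48, with 12, 13 and 75 interactions. It was higher at T48 than at T0 (log2 1.55, SE 0.103, edgeR adjusted p = 0.0319) and than at T6 (log2 1.49, edgeR adjusted p = 0.0467). Its neighbour between 101180001 and 101185000 had 2.88 and 2.94 CPM in the T0 libraries, 3.16 and 3.45 in those of T6 and 7.76 and 8.50 in those of T48, with 12, 10 and 73 interactions (log2 ratio T48 over T0 of 1.48, edgeR adjusted p = 0.0367). Both T48 libraries were above the other 4 in each bin.

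A single hub bin was high at T6 in both libraries and called. On chromosome 10 between 18535001 and 18540000, the CPM was 5.55 and 5.34 in libraries of T0, 16.3 and 16.0 in those of T6 and 5.36 and 5.60 in those of T48, with 11, 56 and 8 interactions. The log2 change from T6 to T48 was -1.56 (SE 0.0975, edgeR adjusted p = 0.0467), and from T0 to T6 it was 1.57 (edgeR adjusted p = 0.0795), which missed the threshold. The T6 libraries lay above the other 4 without overlap.

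Around hub bins that were low in both T48 libraries, the neighbouring bins had ratios nearer to 0. For 36 bins that were hubs at T0 and low in both T48 libraries, the median log2 ratio of T48 over T0 was -1.42. The bins 5, 10 and 15 kb to either side, counted over interactions that touch no hub bin, had medians from -0.17 to -0.05. At each of these distances at most 1 bin, of 23 to 31 with a value, was under -1. The hub bins were chosen for low T48 levels and their neighbours were not. The gap is thus in part fixed by the choice and is no test.

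No single hub interaction passed the test. Of 496203 interactions listed at all time points that were tested, 4940 touched a hub bin, and edgeR called 0 interactions in each of the 3 comparisons (0% in all). An unadjusted p under 0.05 was reached by 3.17%, 5.52% and 5.06% of all interactions for T6 over T0, T48 over T0 and T48 over T6, and by 284, 750 and 623 hub interactions (5.75%, 15.2% and 12.6%). DESeq2 called 1, 23 and 16 hub interactions, where it called 0.000184%, 0.137% and 0.287% of the interactions to which it gave an adjusted p. Of 6037 hub interactions, it gave none to 5246 for T48 over T0 and to 5406 for T48 over T6. The interaction of chromosome 10 between the bins from 18515001 and 18535001 had counts of 25 and 17 in the T0 libraries, 81 and 43 in those of T6 and 21 and 16 in those of T48 (log2 ratio T6 over T0 of 1.73, edgeR adjusted p = 0.676). On chromosome 3, the bins from 84035001 and 84105001 shared 67 and 39 read pairs in the T0 libraries, 17 and 11 in those of T6 and 15 and 10 in those of T48 (log2 ratio T48 over T0 of -1.96, edgeR adjusted p = 0.281). On chromosome 6, the bins from 101150001 and 101160001 shared 44 and 29 in the T0 libraries, 42 and 21 in those of T6 and 131 and 92 in those of T48 (log2 ratio T48 over T6 of 1.77, edgeR adjusted p = 0.393). In each of the 3, the libraries of 1 time point differed in the same direction as the sum of the hub bin. Each interaction is part of that sum and was named for its low p. The shared direction was thus in part fixed and is no test.

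Several of the hub bins with most interactions had no low library. On chromosome 17, the bin from 30595001 had 145, 131 and 164 interactions, of which 112 were listed at all time points, and a CPM of 58.2 and 63.2 in the T0 libraries, 55.7 and 62.0 in those of T6 and 51.8 and 62.5 in those of T48. Likewise, on chromosome 6 the bin from 126115001 had 144, 114 and 146 interactions, with 34.4 and 34.0 CPM in the T0 libraries, 32.8 and 34.7 in those of T6 and 36.6 and 40.0 in those of T48. Also on chromosome 6, but far from that bin, the bin from 98440001 had 108, 85 and 157 interactions with CPM between 23.1 and 29.5. For these 3 bins the edgeR adjusted p of T48 over T0 was between 0.911 and 0.979. Leading on chromosome 11 was the bin from 35810001, the bin with most interactions there, with 72, 64 and 88 interactions and CPM of 24.1 to 29.4. Leading on chromosome 19 was the bin from 45150001, which had 107, 93 and 87 with CPM of 28.2 to 38.6.

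Other leading hub bins had fewer interactions at T48 and a low level in replicate 1 alone. Such was the bin of chromosome 18 from 81175001, which had 153, 131 and 52 interactions, and its CPM was 18.8 and 19.7 in libraries of T0, 18.5 and 18.4 in those of T6 and 7.16 and 23.1 in those of T48. The T48 libraries lay on either side of the other 4. On chromosome 6, the bin from 99475001 had 143, 127 and 21 interactions, with 9.02 and 9.38 CPM in the T0 libraries, 8.30 and 8.40 in those of T6 and 3.59 and 11.3 in those of T48. A bin of chromosome 5, from 75335001, had 135, 125 and 42, with 6.84 and 21.5 CPM at T48 against 17.1 to 18.8 in the earlier libraries. In the bin of chromosome 15 from 101170001 (102, 98 and 68 interactions), the T48 values were 12.3 and 34.4 against 30.2 to 34.1. For these bins the edgeR adjusted p of T48 over T0 was between 0.908 and 0.953. By contrast, the bin of chromosome 13 from 23490001 (153, 130 and 46) was below its earlier values in both T48 libraries, to unequal extents, with 3.84 and 11.3 CPM against 15.1 to 16.4.

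Hub bins with more interactions at T48 also differed in whether both replicates moved. With 9, 4 and 92 interactions, the bin of chromosome 6 from 99995001 had a CPM of 3.03 and 2.82 in the T0 libraries, 2.68 and 2.67 in those of T6 and 6.42 and 7.02 in those of T48 (log2 ratio T48 over T0 of 1.19, edgeR adjusted p = 0.0669, past no threshold). Both T48 libraries were high there. Farther along chromosome 6, the bin from 106785001 had 30, 27 and 145 interactions, with 5.41 and 12.6 CPM in the T0 libraries, 5.61 and 12.7 in those of T6 and 14.4 and 13.9 in those of T48, so replicate 2 had a similar level in all groups. In the 1-sided bin of chromosome 12 from 81230001, interactions numbered 44, 38 and 99, with 6.67 and 20.4 CPM at T48 against 5.46 to 6.09 earlier, so replicate 2 at T48 was the high library. On chromosome 6 from 101105001 (13, 59 and 79 interactions), replicate 2 at T0 was lowest with 6.38 CPM, against 13.5 to 19.3 in the other 5 libraries. The number at T48 was higher without a higher CPM on chromosome 7, where the bin from 136795001 had 38, 30 and 74 interactions while its CPM stayed between 1.71 and 2.25. Similarly, the bin of chromosome 16 from 29730001 had 47, 38 and 57 with CPM of 4.01 to 4.80.

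Among the bins with most interactions lost from T0 to T6, some were low in both later groups. An example is the bin of chromosome 4 from 106850001, with 117, 12 and 12 interactions and 11.0 and 12.4 CPM in the T0 libraries, 3.03 and 3.52 in those of T6 and 3.98 and 4.41 in those of T48 (log2 ratio T48 over T0 of -1.48, edgeR adjusted p = 0.0537). A like course was seen on chromosome 2, where the bin from 28250001 had 118, 21 and 20 interactions, with 18.2 and 17.5 CPM in the T0 libraries, 6.11 and 6.77 in those of T6 and 6.40 and 6.81 in those of T48 (log2 -1.44, edgeR adjusted p = 0.0524). The T0 libraries were high in both bins, but neither passed the threshold. Unlike these, the bin of chromosome 3 from 128910001 had 123, 21 and 28 interactions, with 12.3 and 13.8 CPM in the T0 libraries, 4.11 and 12.3 in those of T6 and 4.29 and 15.8 in those of T48, so replicate 2 stayed high. Further losses from T0 to T48 were those of the bins of chromosome 6 from 96805001 (124, 109 and 13) and of chromosome 10 from 57160001 (112, 80 and 13). In the former, replicate 1 at T48 had 3.94 CPM and the other 5 libraries 7.62 to 9.90, and in the latter replicate 1 at T48 had 2.89 and the other libraries of replicate 1 at least 9.06.

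Bins with more interactions at T6 than at the other times were mostly high in both T6 libraries and mixed elsewhere. Highest in number was the bin of chromosome 9 from 42755001, which had 51, 119 and 42 interactions and a CPM of 18.8 and 6.95 in the T0 libraries, 21.7 and 19.6 in those of T6 and 7.66 and 8.14 in those of T48. Below both T6 values in the other 4 libraries was the bin of chromosome 6 from 113700001 (23, 89 and 17 interactions), with 6.78 and 5.28 CPM in the T0 libraries, 11.0 and 12.0 in those of T6 and 5.19 and 4.94 in those of T48. Mixed at T48 was the bin of chromosome 6 from 100135001 (8, 79 and 15 interactions), with 5.48 and 5.83 in the T0 libraries, 13.7 and 13.8 in those of T6 and 5.85 and 15.4 in those of T48. In the bins of chromosome 14 from 13460001 (44, 103 and 36) and chromosome 6 from 111820001 (8, 94 and 10), 1 library of T0 and 1 of T48 was low. The reverse course, with fewest interactions at T6, was seen in the bins of chromosome 6 from 94555001 (74, 31 and 75) and chromosome 8 from 60130001 (66, 21 and 66). In the former, replicate 1 at T6 had 7.96 CPM and the other 5 libraries 18.6 to 25.3, and in the latter replicate 1 at T6 had 5.84 and the others at least 16.1. On chromosome 6 from 99110001 (83, 17 and 74), replicate 2 at T6 was the low library with 6.66 CPM against 13.7 to 16.4, and from 98895001 (122, 80 and 141) no library was low.

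Replicates of a group differed more in hub bins than elsewhere. The replicates differed by more than 2-fold in CPM in 38 hub bins at T0 (15.8%), 39 at T6 (16.2%) and 105 at T48 (43.6%). Over all bins tested the shares were 2.81%, 2.58% and 2.32%. Hub bins were chosen by listed counts and summed a median of 19 interactions, against 3 over all bins. The comparison is thus between unlike sets and is given without a test. In 17 hub bins (7.05%) replicate 2 was more than 2-fold above replicate 1 at every time point, against a background of 0.56% of all bins (1739 of 310746). The opposite was seen in 0 hub bins and 649 of all bins.

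Of these 17 bins, 8 lay in the distal stretch of chromosome 4, 4 on chromosome 5 between 14950001 and 15200000, 3 on chromosome 8 between 19950001 and 19980000, and 2 on chromosome 10. The chromosome 5 bin from 15195001 had a CPM of 38.3 and 447.7 in the T0 libraries, 41.5 and 473.2 in those of T6 and 43.8 and 497.3 in those of T48, with 75, 74 and 94 interactions. The chromosome 8 bin from 19975001 had 23.2 and 307.6, 22.9 and 309.9, and 22.7 and 329.4, with 85, 69 and 108 interactions. The chromosome 10 bin from 57685001 had 35.1 and 244.0, 43.4 and 290.9, and 28.2 and 228.6, with 102, 113 and 103 interactions. In each of these 3 the replicates of a time point were farther apart than the time points of a replicate. The chromosome 4 bin from 145035001, with 140, 144 and 138 interactions, showed a smaller gap in the same direction, with 62.8 and 116.9 CPM in the T0 libraries, 63.2 and 123.4 in those of T6 and 55.3 and 98.6 in those of T48. Because the rule asks for a listing in both replicates, such bins were hubs in spite of the gap.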

How the data were processed

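Hi-C libraries of P19 cells were grouped by the sample titles into T0, T6 and T48 with 2 replicates each. The deposited table gives whole-number counts of read pairs per pair of 5 kb bins and library, and a count of 0 marks a pair that was not listed at that time point. The submitters' processing notes name CASAVA 1.8.2, Bowtie2 and build mm9. Not given in the sources used here were the restriction enzyme, the interaction caller with its threshold, and whether bins were corrected for coverage. Pairs of the mitochondrial genome were left out. Bin starts and ends were computed from the deposited bin centres. A genome and an annotation of mm9 were not used here, which is why bins carry no gene names or sequences.

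Members were bins of chromosomes 2 to 19 in at least 50 listed pairs at 1 or more time points. The members and lists were chosen with earlier results of these data known. For pairs listed at every time point, counts and their sums per bin (each pair once per bin), were tested with edgeR 4.0.16 in R 4.3.3: TMM, filterByExpr, all 6 libraries in 1 fit, a two-sided quasi-likelihood test, and Benjamini-Hochberg adjustment over all pairs or bins at 0.05. CPM are relative to the sum over bins. Scripts were tested on simulated data. Alternatives were DESeq2 1.42.0, its size factors in edgeR, no filter, a replicate block, leaving out each library, bin sums over pairs at least 15 kb apart, thresholds of 40 and 60, pairs at least 20 kb apart, a list of counts at least 1.5 times the lowest listed, and numbers scaled to list length. Levels of 0.4 and 0.6 in place of 0.5, spans without 1 bin of chromosome 4, numbers scaled with the same members, and count shares within each replicate number were added after the data were seen.

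Hub bins within 100 kb formed a region. Named were the top bins of the 10 regions with most interactions and of each chromosome, the 6 largest gains and 6 largest losses from T0 to T48, the 4 largest excesses and 4 largest deficits at T6, and bins or pairs past the tests or, where none passed, the 2 with the lowest p. Hub bins named for unequal replicates were chosen after their values were seen.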

Additional observations from a re-analysis of the deposited data

Results flagged for a closer look

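In 2 hub bins the change from T0 differed between 6 h and 48 h by the test of T48 over T6. On chromosome 10 from 18535001 to 18540000, the log2 ratio of T48 over T6 was -1.56 (edgeR adjusted p = 0.0467), with 16.3 and 16.0 CPM at T6 and 5.36 and 5.60 at T48. On chromosome 6 from 101150001 to 101155000 it was 1.49 (edgeR adjusted p = 0.0467), with 3.44 and 3.88 CPM at T6 and 9.85 and 10.7 at T48. Each direction was shown by both replicates, and each call was lost when any 1 library was left out. Both bins became members only through the time point at which they were high, so these directions were in part fixed by the choice.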

How the results depend on the processing

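Hub bins numbered 551 with a threshold of 40 and 67 in the stricter list, against 241. Interactions listed at all 3 time points made up 22.6% with a threshold of 40, 27.5% in the stricter list and 23.2% with pairs at least 20 kb apart, against 25.2%. Those listed at 1 time point made up 50.1%, 42.9% and 48.5%, against 47.0%. The median spans at T0, T6 and T48 were 265, 255 and 320 kb with a threshold of 40, 190, 185 and 225 kb in the stricter list, and 240, 230 and 285 kb with pairs at least 20 kb apart. With a threshold of 60 the median span at T48 was 235 kb. More interactions at T48 than at T0 were found in 250 bins (45.4%) with a threshold of 40 and 28 (41.8%) in the stricter list, against 80 (33.2%). More at T6 than at T0 were found in 95 (17.2%) and 9 (13.4%), against 55 (22.8%). Scaled to list length, 159 of the members chosen again, and 155 of the same members, had more at T6 than at T0, against 55. Hub-to-hub interactions made up 2.67% with a threshold of 60, 1.17% in the stricter list and 3.25% scaled to list length.

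For T6 over T0, T48 over T0 and T48 over T6, hub bins called numbered 12, 25 and 20 in DESeq2 (of 41, 193 and 152 bins called in all), against 0, 7 and 2 in edgeR. The replicate block gave 11, 24 and 20 hub bins of 34, 154 and 133 called in all, and 0 hub interactions of 0, 1 and 1. Replicate differences correlated across bins at 0.557 between T0 and T6, 0.469 between T0 and T48, and 0.463 between T6 and T48, but the labels give no common origin for a number. Leaving out 1 library gave 0 to 0 hub bins for T48 over T0 and 0 to 0 for T48 over T6. Bin sums over pairs at least 15 kb apart gave 0 and 0 for these comparisons. DESeq2 called 1, 23 and 16 hub interactions of 1, 95 and 78 called in all, against 0. The share of the listed count, T48 minus T0, ranged from -0.424 to 0.00292 percentage points when 1 library was left out, and it was 0.00292 without T48 replicate 1, which sets T48 replicate 2 against both T0 libraries. The causes of these differences were not tested. With 2 libraries a group, no exact test can pass 0.05.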

Other observations

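The T48 libraries were also read in hub bins outside chromosomes 2 to 19, with no test of a difference from the members. On chromosome 1, 183 bins were hubs at T0 and not at T48, of which 143 were low in replicate 1 at T48 only, 39 in both T48 libraries, 0 in replicate 2 only and 1 in neither. On chromosome X the numbers for 4 such bins were 2, 1, 0 and 1. These are values of the same 6 libraries and the same lists.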
